A study of Mus musculus with 2 samples.

Results

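Tumor necrosis factor (TNF-α, gene Tnf), its receptors Tnfrsf1a and Tnfrsf1b, and the proteins that gather at those receptors (Tradd, Ripk1, Traf1, Traf2, Birc2, Birc3 and Cflar) were examined in mammary basal cell cultures with and without macrophages. The 10 genes were chosen by name for their place in the pathway, with earlier results of these data known, and all 10 of the 49492 genes in the count table were found and held enough reads to be compared. Basal cells of wild-type (WT) genotype were sorted by FACS from glands of adult females and embedded in matrix gel for 3D culture, in medium with EGF and insulin-transferrin-selenium, either without macrophages (ctrl) or together with M2-like macrophages (M2). The series gives 11 to 14 days for the co-culture. The macrophages were derived from bone marrow, polarized with IL-4 and IL-13, kept in a transwell chamber apart from the gel, and replaced at intervals. The labels speak of a microarray, but the values are sequencing read counts. Each group holds 1 library, so no difference below has a replicate check and no p-value is given. The intervals are 95% intervals of counting error alone.

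TNF-α is made as a membrane protein, cut free by the protease Adam17, and binds as a trimer. Tnfrsf1a (TNFR1) is found on most cells and carries a death domain, through which Tradd and Ripk1 bind and then bring in Traf2 with the ubiquitin ligases Birc2 and Birc3. This complex switches on NF-κB, while a second complex with Fadd and Casp8 can start cell death unless Cflar (c-FLIP) holds it in check. Tnfrsf1b (TNFR2) has no death domain, recruits Traf2 and Traf1, and is known mainly from immune and endothelial cells.

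Of the 10 members, 3 were at least 2-fold higher in M2, namely Tnf, Tnfrsf1b and Birc3, and 0 were at least 2-fold lower, where 9.51% of all genes tested were higher and 7.83% lower by that much. The stretches before their transcription starts are shown because the 3 genes were higher together. Each is the 250 bases before the start in RefSeq (GRCm38.p6), written in the direction of transcription, and so lies upstream of the gene in that annotation. Tnf lies at chr17:35202008-35202257 on the minus strand, Tnfrsf1b at chr4:145246871-145247120 on the minus strand and Birc3 at chr9:7873171-7873420 on the minus strand. Capitals mark matches to the motifs described below.
Tnf: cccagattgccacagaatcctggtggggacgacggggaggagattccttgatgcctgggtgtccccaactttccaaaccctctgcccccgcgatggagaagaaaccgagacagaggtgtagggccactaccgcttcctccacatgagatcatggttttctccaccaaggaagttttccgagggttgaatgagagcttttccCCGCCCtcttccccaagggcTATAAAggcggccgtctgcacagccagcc
Tnfrsf1b: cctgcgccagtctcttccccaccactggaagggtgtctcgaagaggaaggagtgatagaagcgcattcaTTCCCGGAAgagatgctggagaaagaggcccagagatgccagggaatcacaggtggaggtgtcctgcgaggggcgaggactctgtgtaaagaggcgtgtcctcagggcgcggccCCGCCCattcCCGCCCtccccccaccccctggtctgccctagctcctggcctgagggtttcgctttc
Birc3: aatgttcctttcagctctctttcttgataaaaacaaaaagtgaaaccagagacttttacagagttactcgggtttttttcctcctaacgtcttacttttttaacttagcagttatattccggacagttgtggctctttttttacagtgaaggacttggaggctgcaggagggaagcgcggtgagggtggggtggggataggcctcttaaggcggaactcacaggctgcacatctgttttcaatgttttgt

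The motifs searched on both strands were the κB consensus, TATAAA, the AP-1 motif TGANTCA, the CRE TGACGTCA, the GC box GGGCGG and the STAT motif TTCNNNGAA, and no matches of different motifs overlapped in these 3 stretches. Tnf held a TATAAA from 29 to 24 bases before the start, which 12.4% of 32851 promoters of the same length contained, and a GC box from 49 to 44 bases before it. Tnfrsf1b held no TATAAA but 2 GC boxes, a motif found in 32.7% of promoters, and 1 STAT motif, found in 7.02%. Birc3 held none of the 6 motifs. No member's window matched the κB consensus, against 7.25% of all promoters, which says only that these letters are not in this window. A promoter was matched for 9 of the 10 members, and Tradd had no entry. No motif searched was common to the 3 genes within the window.

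A short stretch of the Tnf message is shown as well, because Zfp36, the protein that binds AU-rich elements and marks the Tnf mRNA for decay, is among the pathway genes described below. It lies in the last exon, in the 3′ UTR, at chr17:35199681-35199710 (GRCm38, minus strand), and capitals mark the nonamer TTATTTATT, overlapping matches included.
Tnf AU-rich stretch: ttaTTATTTATTATTTATTTATTATTTATT
The Tnf 3′ UTR held 5 such nonamers, 4 of them in this stretch. Ripk1 held 2, Birc3 held 1, and the other 7 members held 0 in the coding transcript compared, against 6.98% of 21020 genes with at least 1. The 3′ UTRs searched differed in length, from 54 bases for Cflar to 4365 for Ripk1, so the 0 of Cflar says little.

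The libraries held 26912610 reads in genes for ctrl and 29413844 for M2. Levels are given as CPM, the reads of a gene relative to the size of its library, after TMM scaling, which sets the libraries on a common scale. The basal keratins were abundant, Krt14 with 81991 and 68968 reads and Krt5 with 56383 and 83619, and the 8 basal markers summed to 213718 (ctrl) and 222147 (M2) reads. Luminal markers held 124305 and 104590 reads, so the colonies contained both epithelial kinds of transcript. Of the 11 luminal markers 5 were at least 2-fold lower in M2 (45.5%, against 7.83% of all genes tested) and 0 higher (9.51%). These were Elf5, Kit, Esr1, Pgr and Prlr, with log2 differences from -2.54 to -1.11. The other 6 were not called, namely Krt8 (0.21), Epcam (0.054), Krt18 (-0.048), Gata3 (-0.11), Cd24a (-0.53) and Krt19 (-0.78). The median of the luminal list was -0.78, with 2 values positive and 9 negative. Of the basal list 1 was lower (12.5%), Oxtr, at -2.19, and 0 were higher. The 6 fibroblast markers held 8800 and 3812 reads, with 3 at least 2-fold lower (50%), Col3a1 most so at -2.61. Another of these 3, Lum, had only 10 and 3 reads, and its interval of -4.31 to 0.15 included 0. But 1 marker was higher (16.7%), Dcn, at 1.53, and Col1a1 (-0.98) and Pdgfra (0.37) were not called. Of the endothelial markers Pecam1 was higher (33 and 76 reads) while Cdh5 (11 and 2) and Kdr (11 and 0) were lower, so their sum of 57 and 81 reads does not speak for the list. The lymphocyte list held 10 and 20 reads. The genes named from these lists were chosen with their values in view. In such bulk libraries, fewer cells of a type and less RNA per cell cannot be told apart. The part of these shifts in the results below was not tested.

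The ligand was higher in the M2 library. For Tnf (chromosome 17, 35199381 to 35202007, GRCm38) 133 reads were counted in ctrl against 1032 in M2. In CPM this was 4.85 (95% Poisson interval 4.06 to 5.74) in ctrl and 35.8 (33.6 to 38.0) in M2, and the intervals did not overlap. The log2 fold difference, M2 over ctrl, was 2.88 (95% interval 2.62 to 3.16), a 7.34-fold higher level, and 1.53% of all genes tested had a value at least as high. The genes on either side of Tnf, both ligands of the same family, had few reads in either library. Lta, lymphotoxin-α, lies 1157 bases away and had 14 and 16 reads. Ltb, lymphotoxin-β, lies 3060 bases away on the other side and had 3 and 14 reads.

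Macrophages are a well-known source of Tnf, so their markers are given beside it. Of 20 macrophage markers, 8 had 0 reads in both libraries, among them Ptprc, Adgre1, Tyrobp and Fcer1g, and Lyz2 had 3 reads in ctrl and 1 in M2. At or under 3 reads were 16 markers in ctrl and 13 in M2. The list summed to 1789 and 2438 reads (65.2 and 84.5 CPM), mostly from Arg1 with 1507 and 2090 reads, an enzyme that is not confined to macrophages. Without Arg1, left out after its values were seen, 282 and 348 reads remained. Cd68, with 170 reads against 165, and Csf1r, with 94 against 92, were close to level. Aif1 had 3 and 40 reads and Cd163 had 2 and 30, with lower limits of the log2 fold difference of 2.02 and 1.86. Itgam had 3 and 9 reads, and its interval of -0.49 to 4.04 included 0. The part of these markers in the level of Tnf was not tested.

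**Figure D1:**
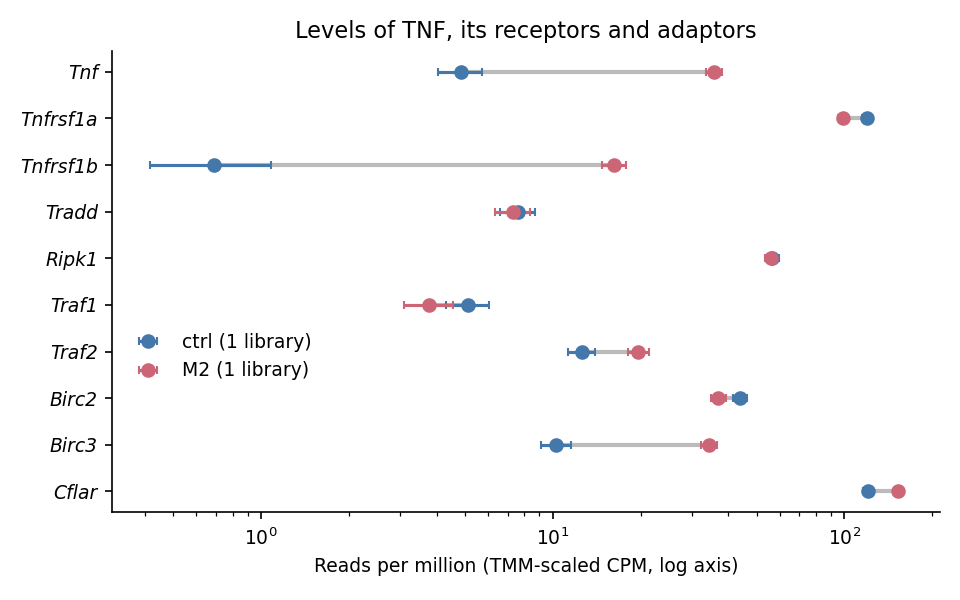
Level of each member in the ctrl and M2 libraries, in TMM-scaled CPM on a log axis, with 95% Poisson intervals of counting error and 1 library per group. Tnf, Tnfrsf1b and Birc3 are well to the right in M2, whereas the points of Tradd and Ripk1 overlap.

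The receptors differed from each other. Tnfrsf1a (chromosome 6, 125349362 to 125362484), the widely expressed death domain receptor, gave 3270 and 2841 reads, which was 119 (115 to 123) and 98.5 (94.9 to 102) CPM. Its log2 fold difference was -0.27 (-0.35 to -0.20), which is lower than counting error alone allows but well inside 2-fold. For Tnfrsf1b (chromosome 4, 145213463 to 145246870) only 19 reads were counted in ctrl, or 0.692 (0.417 to 1.08) CPM, and 468 reads in M2, or 16.2 (14.8 to 17.8) CPM. Its log2 fold difference was 4.48 (3.89 to 5.30), the highest of the 10 members, and 0.369% of genes tested reached this value. With so few reads in ctrl, the exact fold is loosely set by the counts. The receptor without a death domain was thus barely detected in ctrl and clearly detected in M2, while the death domain receptor differed by less than 2-fold. Tnfrsf1b is a gene that the study itself followed as a TNF-α target.

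Levels of different genes can be compared per length, as RPKM, the CPM divided by the length of annotated exon in kilobases. In ctrl, Tnfrsf1a stood at 46.0 RPKM and Tnfrsf1b at 0.181, a ratio of 254 to 1. In M2 they stood at 38.0 and 4.25 RPKM, a ratio of 8.95 to 1. The log2 change of the ratio Tnfrsf1b to Tnfrsf1a was 4.83 (4.16 to 5.49). Tnfrsf1a therefore remained the more abundant receptor message in both libraries.

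The death domain adaptors were level. Tradd (chromosome 8, 105258286 to 105264609), the first adaptor at TNFR1, had 208 and 211 reads, or 7.58 and 7.32 CPM, a log2 fold difference of -0.051 (-0.33 to 0.23). Ripk1 (chromosome 13, 34002363 to 34035170), the kinase and ubiquitin scaffold of the complex, had 1555 and 1619 reads, or 56.6 and 56.1 CPM, a difference of -0.013 (-0.11 to 0.088), a sign that turned under RLE scaling (0.012). These intervals leave out a 2-fold difference in either direction between these libraries. Ripk1 shares 241 exon bases with Serpinb6a on the opposite strand (1634 and 3186 reads) and 2108 with Gm17084 on the same strand (320 and 321 reads). How reads in shared exons were counted is not given in the sources used here, so the level of Ripk1 is uncertain. Gm17083, within Ripk1, and Gm13433, within Traf2, share 0 exon bases with these members.

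The TRAF adaptors differed in opposite directions, neither by 2-fold. Traf2 (chromosome 2, 25517982 to 25546940), the adaptor that brings the Birc2 and Birc3 ligases to either receptor, had 346 and 567 reads, or 12.6 (11.3 to 14.0) and 19.7 (18.1 to 21.3) CPM. Its log2 fold difference was 0.64 (0.45 to 0.84), a value that 15.1% of genes tested reached. Traf1 (chromosome 2, 34941750 to 34961772), a relative without the RING domain that is widely used as an NF-κB target gene, had 141 and 109 reads, or 5.14 and 3.78 CPM, a difference of -0.44 (-0.82 to -0.072). Its intervals of the level, 4.32 to 6.06 CPM in ctrl and 3.10 to 4.56 in M2, overlapped. Per length, Traf1 stood at 0.236 of Traf2 without macrophages and at 0.111 with them, a log2 change in the ratio of -1.08 (-1.49 to -0.67).

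The ubiquitin ligases Birc2 (cIAP1) and Birc3 (cIAP2) are neighbours on chromosome 9, 11634 bases apart on the same strand, and again only one of the pair was much higher. Birc2 (7818227 to 7837064) had 1204 and 1066 reads, or 43.9 and 37.0 CPM, a log2 fold difference of -0.25 (-0.37 to -0.13). Birc3 (7848699 to 7873186), the NF-κB-inducible copy, had 282 and 992 reads, or 10.3 (9.11 to 11.5) and 34.4 (32.3 to 36.6) CPM, a difference of 1.74 (1.55 to 1.94). Birc3 was thus 3.34-fold higher, and 4.11% of genes tested had a value at least as high. In ctrl, Birc2 exceeded Birc3 4.67 to 1 per length. In M2 the levels were 8.07 and 6.87 RPKM, 1.18 to 1. The log2 change of the ratio Birc3 to Birc2 was 1.99 (1.77 to 2.22). The genes are paralogs, and how reads that match both were counted is not given.

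**Figure D2:**
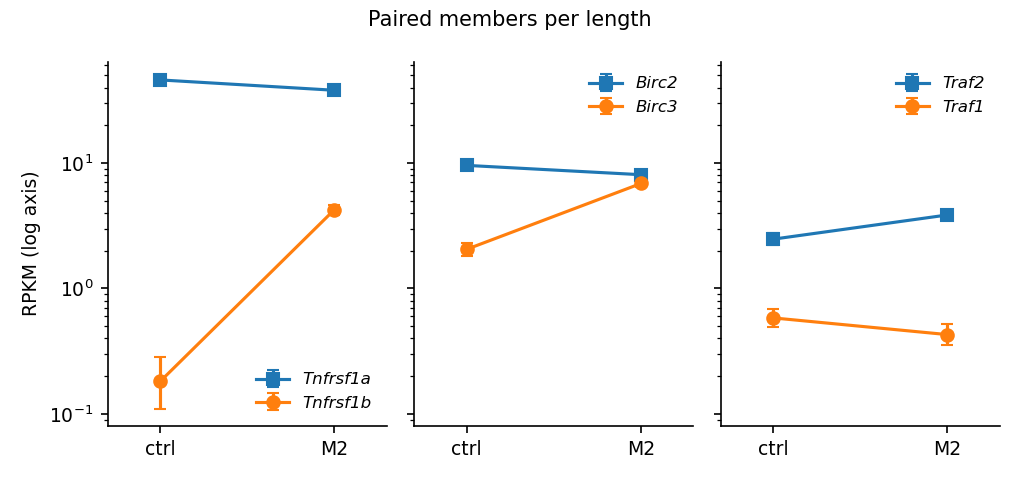
RPKM of 3 pairs of members in ctrl and M2 on a log axis, with 95% Poisson intervals of counting error. The lines of Birc2 and Birc3 nearly meet in M2 (8.07 and 6.87 RPKM), Tnfrsf1b approaches Tnfrsf1a without reaching it, and Traf1 and Traf2 move apart.

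Cflar (chromosome 1, 58711508 to 58758884), the inhibitor of caspase-8 activation, was the member with the most reads, 3294 in ctrl and 4415 in M2. Its level was 120.0 (116 to 124) and 153 (149 to 158) CPM, a log2 fold difference of 0.35 (0.29 to 0.42), 1.28-fold higher in M2. Casp8, the caspase it restrains, lies 36489 bases further along the same strand and had 575 and 1136 reads, a difference of 0.91 (0.77 to 1.06). Per length, Cflar exceeded Casp8 in ctrl, 1.31 to 1, but not in M2, 0.887 to 1, and the log2 change of the ratio was -0.56 (-0.72 to -0.40). Which gene stands higher per length rests on exon unions of 12669 bases for Cflar and 2893 for Casp8. In reads, Cflar exceeded Casp8 in both libraries. The change of the ratio does not depend on the lengths. Both genes were higher in M2, Casp8 by more.

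Ordered per length in ctrl, the members ran Tnfrsf1a, Birc2, Cflar, Ripk1, Tradd, Tnf, Traf2, Birc3, Traf1 and Tnfrsf1b, from 46.0 down to 0.181 RPKM. In that order Birc2, Cflar and Ripk1 (9.58, 9.47 and 9.23 RPKM) could not be separated by counting error, nor could Tnf from Traf2 (2.96 and 2.47) or Traf2 from Birc3 (2.47 and 2.05). In M2 the order was Tnfrsf1a, Tnf, Cflar, Ripk1, Birc2, Birc3, Tnfrsf1b, Tradd, Traf2 and Traf1, from 38.0 to 0.429 RPKM, and Tnfrsf1b, Tradd and Traf2 (4.25, 3.92 and 3.85) overlapped. Tnf moved from place 6 to place 2, with 2.96 RPKM in ctrl and 21.8 in M2, and Tnfrsf1b from place 10 to place 7. The lengths are unions of all annotated exons, up to 12669 bases for Cflar and 8819 for Traf1, which lowers the RPKM of genes with many isoforms.

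As a group, 3 of the 10 members were at least 2-fold higher in M2 and 0 were at least 2-fold lower. Across the 19233 genes with at least 10 reads, 9.51% were at least 2-fold higher and 7.83% at least 2-fold lower. Among genes with at least 1000 reads, a limit chosen after seeing the data, these shares were 4.51% and 3.02%. Tnf and Birc3 reach that limit only through their reads in M2, so no count of members is set against it. The median log2 fold difference of the members was 0.17, against -0.0051 for all genes tested, whose quartiles were -0.33 and 0.34. Of the members 5 had a positive and 5 a negative value. The members past 2-fold were the ligand, the receptor without a death domain and 1 of the ligases.

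**Figure D3:**
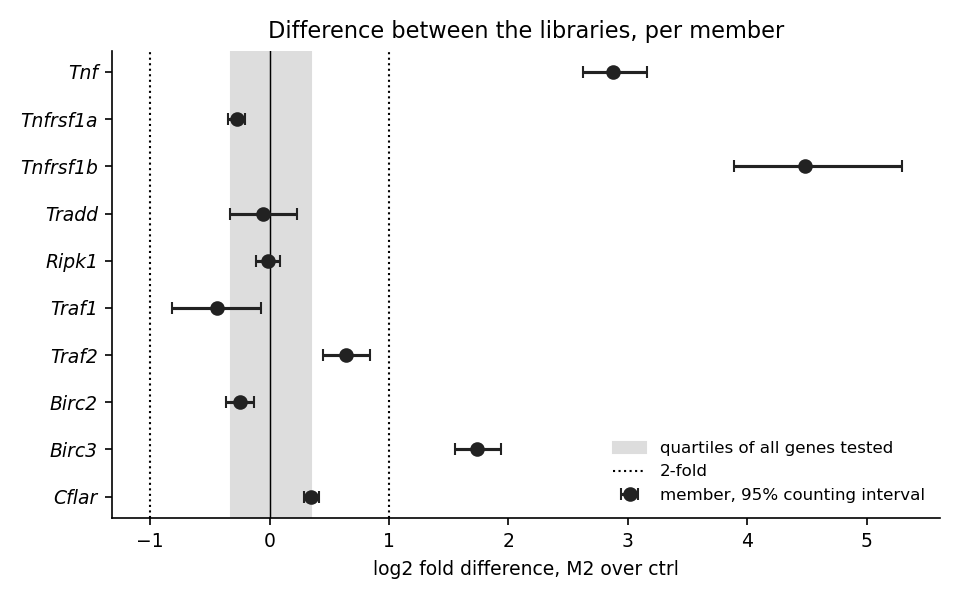
log2 fold difference of each member, M2 over ctrl, with 95% counting intervals, the quartiles of all genes tested as a grey band and 2-fold as dotted lines. Tnfrsf1b (4.48), Tnf (2.88) and Birc3 (1.74) lie past 2-fold on the higher side and no member lies past it on the lower side.

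**Figure D4:**
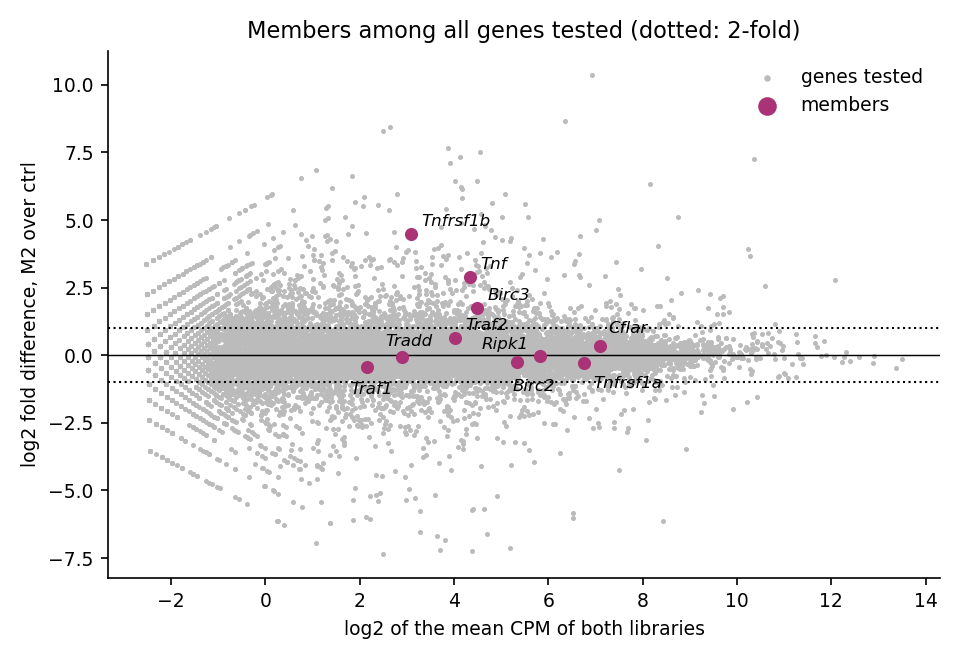
log2 fold difference against the log2 mean CPM for all genes tested (grey) and the 10 members (labelled). Tnfrsf1b, Tnf and Birc3 stand above the dense band of genes of like level, in which some genes lie higher still, while the other members sit inside the 2-fold lines.

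To place the members in their pathway, 7 lists of other TNF genes were counted in the same way. Of 123 listed genes 113 could be compared, and 46 were at least 2-fold higher and 5 at least 2-fold lower in M2, with a median log2 fold difference of 0.60. These are 40.7% and 4.42%, where all genes tested gave 9.51% and 7.83%, and the lists, like the members, were drawn up with earlier results known.

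Among other ligands of the TNF superfamily, 10 of 17 had enough reads, with 4 higher, 1 lower (9.51% and 7.83% over all genes) and a median of 0.077, or 0.088 with counts under 3 set to 3. The counts were 2 and 0 with at least 1 CPM in both libraries, where all genes gave 797 and 585. The numbers of genes compared under that filter are not given here, so no share is drawn from these counts. On the interval limit nearest to 0 they were 2 and 1, against 935 and 679 of all 19233 genes. Tnfsf10 (TRAIL), a ligand of death receptors, had 611 and 1913 reads, a log2 fold difference of 1.57 (1.44 to 1.71). Tnfsf13 (APRIL), known for its effect on B cells, had 517 and 1178 reads, a difference of 1.12 (0.97 to 1.27). Eda, ectodysplasin, had 105 and 86 reads, a difference of -0.36 (-0.79 to 0.066). The remaining higher ligands, Ltb and Tnfsf15 (0 and 10 reads), and the lower one, Tnfsf18 (10 and 0 reads), rested on few reads and were named after their values were seen.

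Among other receptors of the superfamily, 23 of 26 could be compared, with 12 higher (52.2%, against 9.51% of all genes), 3 lower (13.0%, against 7.83%) and a median of 1.02. These counts became 7 and 0 with at least 1 CPM in both libraries, and also on the interval limit nearest to 0. At 4-fold they were 5 and 1. Over all genes the counts were 797 and 585 at that CPM. The numbers compared under that filter are not given here, so its counts give no share. Of all 19233 genes they were 935 and 679 on that limit, and 614 and 495 at 4-fold. The lower calls, Tnfrsf13c (13 and 4 reads), Tnfrsf19 (11 and 1) and Tnfrsf25 (43 and 15), and the higher call of Tnfrsf26 (5 and 13), whose interval included 0, rested on few reads and were looked at after their values were seen. Tnfrsf9 (4-1BB), a costimulatory receptor that like Tnfrsf1b signals through TRAFs, had 3 and 135 reads, with a 95% interval of the log2 fold difference from 3.84 to 7.72. Cd40, another TRAF-binding receptor, had 9 and 82 reads, a difference of 2.98 (2.12 to 4.30). Tnfrsf11b (osteoprotegerin), a secreted decoy, had 74 and 563 reads, a difference of 2.84 (2.50 to 3.23). Tnfrsf23, a decoy TRAIL receptor chosen with its values in view, gave 227 and 1310 reads, a difference of 2.45. Ltbr, the lymphotoxin-β receptor, which lies 35476 bases from Tnfrsf1a, had 1686 and 1464 reads and a difference of -0.27, the same as Tnfrsf1a.

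Of the remaining TRAFs and the ubiquitin and kinase proteins of the receptor complex, all 19 could be compared, with 2 higher, 0 lower and a median of -0.0095. The share higher, 10.5%, was close to the 9.51% of all genes. Ikbke (IKKε) had 336 and 1191 reads, a log2 fold difference of 1.75 (1.58 to 1.93), and Traf3, a brake on noncanonical NF-κB, had 796 and 1688 reads, 1.01 (0.89 to 1.14). Traf3 lay close to the threshold and was under it when scaled by total reads or by the upper quartile. Traf5, a relative of Traf2, had 230 and 167 reads, -0.53 (-0.83 to -0.24).

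Brakes and deubiquitinases of the pathway were split. Of 10 genes, 4 were higher (9.51% over all genes), 0 lower (7.83%), and the median was 0.029. Tnip3 had 17 and 805 reads, a log2 fold difference of 5.41 (4.81 to 6.28). Zc3h12a (regnase-1), a ribonuclease that degrades cytokine mRNAs, had 380 and 5357 reads, 3.74 (3.60 to 3.90). Tnfaip3 (A20), the ubiquitin-editing brake on NF-κB, had 312 and 1836 reads, 2.48 (2.31 to 2.66). Tnip1 was the other higher gene, with 1.44, while the deubiquitinases Cyld and Otulin, like Tnip1 named after their values were seen, had 0.036 and -0.32.

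Among the proteins of the death complexes, 3 of 11 were higher (27.3%, against 9.51% of all genes), 0 lower (7.83%), and the median was 0.86. The count higher was 6 at 1.5-fold and 1 at 4-fold, where all 19233 genes gave 3171 and 614. Ripk3, the kinase of necroptosis, had 18 and 116 reads, a log2 fold difference of 2.55 (1.89 to 3.42). Its substrate Mlkl had 336 and 742 reads, 1.07 (0.88 to 1.26), and Zbp1, a nucleic acid sensor that binds Ripk3, had 201 and 548 reads, 1.37 (1.14 to 1.62). Fadd, the adaptor that joins Casp8 to the complex, had 300 and 312 reads and a difference of -0.015 (-0.25 to 0.22). Bid, like Casp8, lay just under the threshold, at 0.86, and both, with Fadd, were named after their values were seen.

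In the list for shedding of TNF-α and control of its mRNA, 0 of 10 genes were higher and 1 was lower, where all genes gave 9.51% and 7.83%, and the median was -0.11. Zfp36 (tristetraprolin), which binds AU-rich stretches like the one printed above, had 16616 reads in ctrl and 6272 in M2, or 605 and 217 CPM, and its log2 fold difference was -1.48 (-1.52 to -1.43). Timp3, an inhibitor of Adam17, had 27205 and 19787 reads, -0.53 (-0.56 to -0.50). Adam17 itself had 1978 and 2956 reads, 0.51 (0.43 to 0.59).

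Of 30 listed genes used as TNF and NF-κB targets, 21 were at least 2-fold higher (70%, against 9.51% of all genes) and 0 at least 2-fold lower (7.83%). The count higher was 11 at 4-fold (614 of all 19233 genes) and 16 on the interval limit nearest to 0 (935). With at least 1 CPM in both libraries it was 14 (797 over all genes). The numbers compared under that filter are not given here, so this count gives no share to set beside the 70%. Ccl5 (1 and 9 reads), Bcl2a1b (1 and 19), Il6 (4 and 17) and Csf2 (2 and 54), named after their values were seen, had few reads in ctrl. Ccl7 had 7 and 18 reads, and its interval of -0.036 to 2.79 included 0. The 30 listed genes had positive values, but the list was drawn up with earlier results known and does not hold all such targets. Traf1, a member, had -0.44, and Gadd45b, a further target chosen with its values in view, had 1673 and 1220 reads and a difference of -0.53. The median was 1.71, or 1.59 with counts under 3 reads set to 3. Cxcl5, a neutrophil-attracting chemokine, had 190 and 16152 reads, a log2 fold difference of 6.33 (6.13 to 6.55). The collagenase Mmp13 had 33 and 1335 reads, 5.23 (4.77 to 5.81), and the stromelysin Mmp3 had 73 and 2674 reads, 5.10 (4.79 to 5.48). Nfkbia, the inhibitor IκBα, chosen with its values in view, gave 2600 and 5007 reads, 0.87 (0.81 to 0.94). Mmp3, Ccl2 and Ccl7 are genes that the study itself followed as TNF-α targets, so their place in the count is not independent. Many of these genes also respond to other cytokines.

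**Figure D5:**
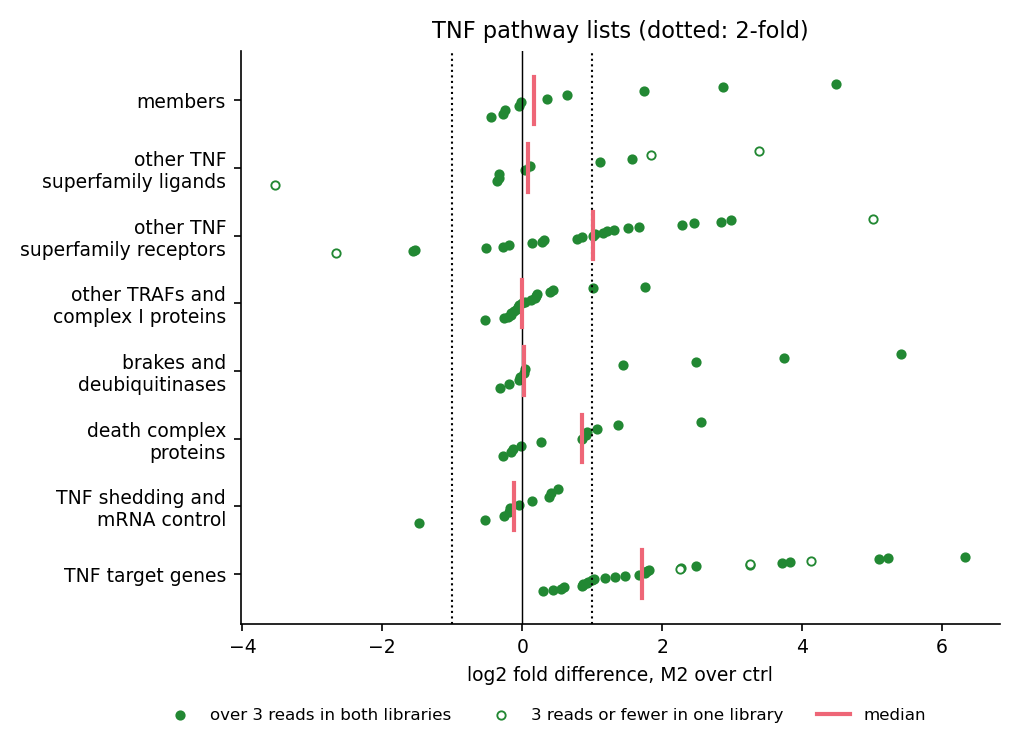
log2 fold difference, M2 over ctrl, of every gene compared in the members and in 7 further pathway lists, with list medians in red and 2-fold as dotted lines. Open circles have 3 reads or fewer in one library. The listed target genes lie above 0 with a median of 1.71, the complex I proteins have a median of -0.0095, and Zfp36 is the single shedding and mRNA control gene past 2-fold.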

How the data were processed

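RNA from 1 ctrl and 1 M2 culture was sequenced, and the labels gave the groups. The authors deposited unnormalized read counts for each gene. The submitters' processing notes name the builds GRCm38 and mm10. The aligner, counting tool, annotation and use of strand are not given in the sources used here, so reads of overlapping genes cannot be assigned with certainty. The deposited table also lists exon positions and a Length, the exon union used here for RPKM. The spans of 9 of the 10 members equal those of GENCODE release M21, and that of Ripk1 differs. In 26 rows the name reads as a date, and none of these is named here.

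Genes with at least 10 reads summed over both libraries were compared. Counts were scaled by TMM in edgeR 4.0.16 with R 4.3.3, with factors of 1.02 (ctrl) and 0.980 (M2). Each log2 fold difference used a pseudocount of 1 and was called at 2-fold. Intervals of folds are exact at 95% (Clopper-Pearson, on how a gene's reads divide between libraries), levels have exact Poisson intervals, and ratios of ratios a normal approximation. No molecular identifiers are stated, so these hold counting error alone. The floor for 0 reads is 3 reads, or 0.109 CPM in ctrl and 0.104 in M2. With 1 library per group, the quasi-likelihood test of edgeR could not be fitted and no test was made. The functions were tested on simulated data that held counting error alone, which says nothing of the spread between cultures.

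The members and lists were chosen with earlier results of these data known. Named were all members, up to 3 genes per list with the largest difference and at least 50 reads in one library, the 6 macrophage markers with the most reads, genes overlapping a member, and others chosen after their values were seen. Scaling, pseudocount, filter, fold and a gene length trend were varied. Promoters came from RefSeq (GRCm38.p6) and 3′ UTRs from GENCODE, using the transcript with the longest coding sequence.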

Additional observations from a re-analysis of the deposited data

How the results depend on the processing

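Of 11 alternatives, 8 recompute a member's fold, and the 2 filters among these leave it unchanged by construction. Of 79 values so obtained 78 stayed within their counting interval, and 0 called values changed sign. The exception was Cflar, 0.44 with a trend on gene length removed. Tnf ran from 2.82 to 2.90, Tnfrsf1b from 4.23 to 4.52 and Birc3 from 1.68 to 1.76, while Ripk1 ran from -0.070 to 0.029 and so has no stable sign. Between 2 and 4 members were called higher and 0 lower. With at least 1 CPM in both libraries Tnfrsf1b could not be compared, and the median of the members was -0.013. Under that filter the pathway lists had 30 genes higher and 1 lower, and at a 4-fold threshold 21 and 2. When the interval limit nearest to 0 had to pass 2-fold, 32 were higher and 2 lower. Of all 19233 genes tested, 614 were higher and 495 lower at 4-fold, 3171 and 2881 at 1.5-fold, and 935 and 679 on the interval limit. With at least 1 CPM in both libraries the counts were 797 and 585. With no filter beyond 1 read they were 3171 and 4003. The numbers of genes compared under these 2 filters are not given here, so no share is drawn from their counts. All these settings admit more or fewer genes by construction. Of 154 counts per list, 135 stayed within 1.5 times, but these include counts of 0 that stayed 0. Depth limits Lta, Ltb and most macrophage markers. No paired analysis was possible because ctrl and M2 hold 1 library each. DESeq2 was not run, as it needs replicates.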
